A study of Rattus norvegicus with 84 samples.

Results

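The 10 genes described here either mark the GABAergic interneurons of the striatum or make and load their transmitter. They were chosen by name: the glutamate decarboxylases Gad1 and Gad2, the vesicular transporter Slc32a1, and the interneuron markers Nos1, Chodl, Lhx6, Nkx2-1, Pthlh, Htr3a and Th. All 10 were found among the 41919 genes of the deposited count table, and all 10 passed the filter on low counts in every fit. Total RNA had been sequenced from 2 subregions of the nucleus accumbens, Shell and Core, of wild-type Long-Evans rats that bore no transgene or deletion by the labels. In each subregion the labels give 6 groups, named Ext_Coc, Ext_Sal, Ctx_Coc, Ctx_Sal, HC_Coc and HC_Sal, with 7 libraries per group, 42 per subregion and 84 in all. Coc is cocaine, Sal is saline and Ext is extinction. HC and Ctx commonly mean home cage and context in this field, but the labels do not spell them out, nor do they state dose, days of withdrawal, age or sex. The labels do not tie each library to an animal of its own, and every p-value reflects scatter among these libraries, which may be technical. Shell titles carry a 3, a 4 or an F, and Core titles a 1, a 2 or an F. Only the F series, with 12 libraries per subregion, therefore holds both subregions, and the other 30 per subregion are called numbered here.

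Nearly all neurons of the accumbens use GABA. Most are projection neurons, and a small share are interneurons, whose axons stay within the nucleus. The decarboxylases make GABA from glutamate, and Slc32a1 loads it into synaptic vesicles, so these 3 genes are used by both kinds of neuron. The other 7 mark smaller classes. Nkx2-1 is the homeobox factor that sets the fate of cells from the medial ganglionic eminence, and Lhx6 is its target, kept in many of the interneurons that arise there. Nos1 encodes the neuronal nitric oxide synthase, found in striatal interneurons that also make somatostatin and neuropeptide Y. Chodl, which encodes chondrolectin, marks a nitric oxide synthase class of somatostatin cells in mouse cortex. Pthlh, a parathyroid hormone-like peptide, marks a striatal class in mice that includes parvalbumin cells. Htr3a, a subunit of the serotonin-gated ion channel, marks interneurons that arise largely from the caudal ganglionic eminence in mice. Th encodes tyrosine hydroxylase, the rate-limiting enzyme of dopamine synthesis, which a class of striatal interneurons also expresses.

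Promoter sequence was matched by symbol for 8 of the 10 members in RefSeq's rat table (build GRCr8), all but Pthlh and Htr3a. The 250 bases before the start site are shown for Gad1, Gad2 and Slc32a1, whose levels rose and fell together over the libraries, and for Lhx6 and Nkx2-1, which also moved together. Capitals mark a match to 1 of 4 motifs on either strand. These are the cyclic AMP response element TGACGTCA, the TATA box TATAAA, the GC box GGGCGG and the CCAAT box CCAAT, none of which overlaps another in these windows.
Gad1, chr3:75777202-75777451, plus strand: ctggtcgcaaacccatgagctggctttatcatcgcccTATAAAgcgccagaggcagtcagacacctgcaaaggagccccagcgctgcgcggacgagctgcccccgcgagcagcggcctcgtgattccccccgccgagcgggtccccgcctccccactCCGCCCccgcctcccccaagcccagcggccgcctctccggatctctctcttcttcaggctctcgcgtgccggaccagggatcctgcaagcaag
Gad2, chr17:89671468-89671717, plus strand: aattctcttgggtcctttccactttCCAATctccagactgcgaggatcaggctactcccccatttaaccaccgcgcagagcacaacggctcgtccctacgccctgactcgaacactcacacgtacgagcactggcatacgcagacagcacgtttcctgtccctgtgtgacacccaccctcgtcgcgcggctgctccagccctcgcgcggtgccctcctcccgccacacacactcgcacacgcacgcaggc
Slc32a1, chr3:167686995-167687244, plus strand: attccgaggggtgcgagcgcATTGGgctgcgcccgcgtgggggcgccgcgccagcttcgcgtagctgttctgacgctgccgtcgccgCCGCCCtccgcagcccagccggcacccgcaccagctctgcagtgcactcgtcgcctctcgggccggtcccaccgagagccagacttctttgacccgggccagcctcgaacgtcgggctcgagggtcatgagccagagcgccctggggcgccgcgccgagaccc
Lhx6, chr3:39853424-39853673, minus strand: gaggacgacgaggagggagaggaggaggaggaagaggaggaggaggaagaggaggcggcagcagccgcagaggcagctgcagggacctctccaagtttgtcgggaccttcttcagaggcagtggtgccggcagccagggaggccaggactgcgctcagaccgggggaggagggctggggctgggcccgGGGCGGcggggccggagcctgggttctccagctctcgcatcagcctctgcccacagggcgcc
Nkx2-1, chr6:79734868-79735117, minus strand: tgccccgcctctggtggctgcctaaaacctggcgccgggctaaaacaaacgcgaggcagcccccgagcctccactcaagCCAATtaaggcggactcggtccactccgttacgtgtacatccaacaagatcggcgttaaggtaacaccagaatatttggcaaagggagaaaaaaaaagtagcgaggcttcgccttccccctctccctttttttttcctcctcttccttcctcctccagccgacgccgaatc
The windows of Slc32a1 (73.6% G or C), Lhx6 (70.4%), Gad1 (68.4%) and Gad2 (62%) were richer in G and C than the median of all promoters in the table (51.2%), and that of Nkx2-1 (55.2%) lay closer to it. A GC box stood in Gad1, Slc32a1, Lhx6 and Nos1, and in 30.5% of all 33469 promoters. A CCAAT box stood in Gad2, Slc32a1 and Nkx2-1, and in 34% of all. TATAAA was found in Gad1 alone among the 8, 213 bases before its start, and in 12.9% of all. The response element stood in Th and Nos1, and in 1.59% of all promoters. It began 69 bases before the start of Th and 9 before that of Nos1, and is shown in capitals within 30 bases of each.
Th, within chr1:207508219-207508468, minus strand: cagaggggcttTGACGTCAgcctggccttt
Nos1, within chr12:44371838-44372087, minus strand: aatgagcagatgacgccaagtTGACGTCAa
A match describes the letters of a window and is not evidence of a working site.

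Libraries held 13628550 to 22494761 counts. The genes that define striatal projection neurons were present in both subregions: the median log2 CPM, a level relative to library size, was 6.07 in Shell and 5.79 in Core for Drd1, and 6.98 in Shell and 6.88 in Core for Drd2. Counts also fell on genes that brain cells do not use. The density of counts per base over 2027 olfactory and vomeronasal receptor genes was taken as a background. Spread over all gene bodies, it made up 22.7% ± 8.48 of the counts in Shell libraries and 19.4% ± 16.6 in Core libraries (SD, n = 42 per subregion), with extremes of 1.58% and 96.1%. In the F series its median was 19.5% in Shell and 3.74% in Core (n = 12 each), so background was unequal there. The Core Ctx_Coc library 17-F held the 96.1%, and stands apart: there every member lay between 0.56 and 1.97 times the receptor density, and Gad1 had 745 counts, against 1752 to 4939 in the other Core libraries. Where it moved a value of a member, the value without it is given as well. Nos1, Lhx6 and Nkx2-1 overlap long noncoding RNA genes in RefSeq (LOC120095990 and LOC120095991, LOC134486080, and LOC102552092). Whether counting used strand is not stated, so reads of such pairs cannot be told apart.

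The 10 genes differed widely in how far they stood above that background. Gene length here is the length implied by count and deposited FPKM together, which spans introns, from 4470 bases for Slc32a1 to 180382 for Nos1. Per base, Slc32a1 had a median over 84 libraries of 96.8 times the receptor density, Gad1 30.6 times and Gad2 21.6 times. Background counts would make up 1.02% of the Slc32a1 counts over these libraries, 3.32% of those of Gad1 and 4.42% of those of Gad2. The 3 transmitter genes were thus read with little background in most libraries. Lhx6 stood at 4.92 times the receptor density, Nkx2-1 at 3.33, Htr3a at 3.21 and Nos1 at 2.87, with 22.1% to 34.9% of their counts expected from background. Th stood at 1.94 and Pthlh at 1.43, with 52.2% and 69.2% of their counts expected from background. Chodl, at 0.83, lay at or below the receptor genes, and was under 2 times their density in 74 of 84 libraries. In those libraries its counts cannot be told from background. The expected background came to 119% of its counts over the 84 libraries, so the estimate is too high for Chodl.

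**Figure D1:**
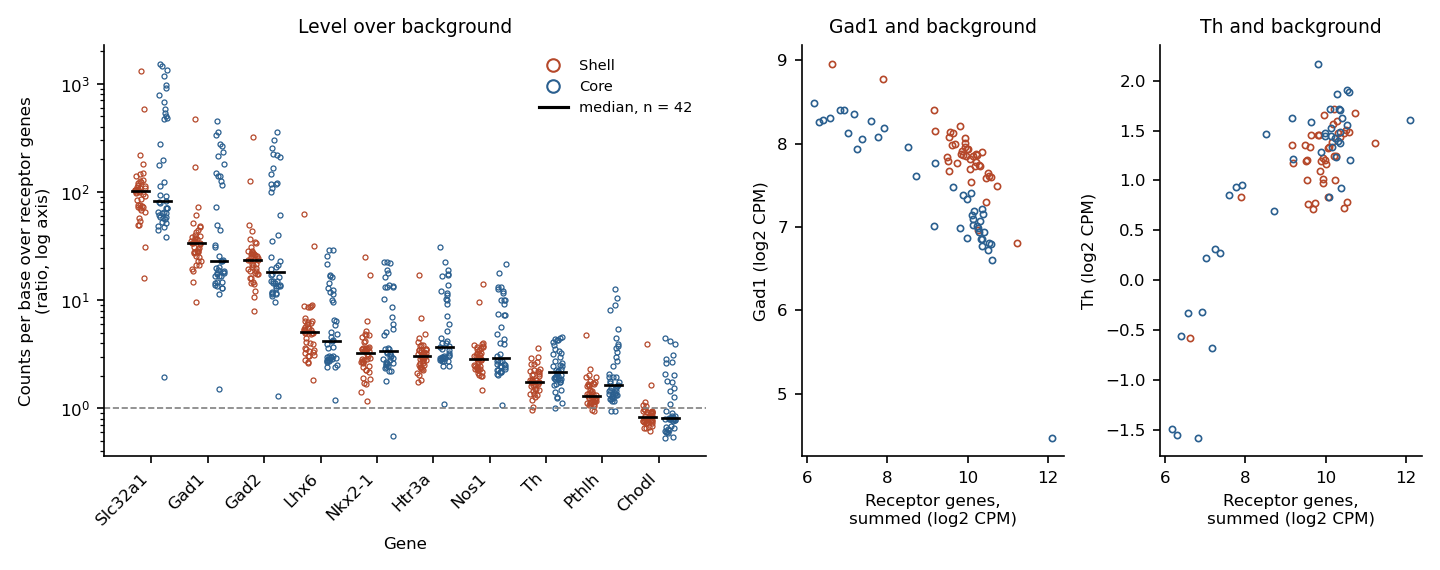
Left, counts per base of each member divided by those of the receptor genes (ratio, log axis) in 42 Shell and 42 Core libraries, with the median as a bar and the receptor density as a dashed line at 1. Centre and right, Gad1 and Th (log2 CPM) against the summed level of the receptor genes (log2 CPM), 1 point per library; Gad1 was lower and Th higher where the receptor level was higher, and the lone low Gad1 point is the Core library 17-F.

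In the 13 libraries with a background under 5%, 1 of Shell and 12 of Core, every member stood above the receptor genes. The median ratio there was 921 for Slc32a1, 234 for Gad1 and 210 for Gad2. It was 16.9 for Htr3a, 16.6 for Lhx6, 16.3 for Nkx2-1 and 12.3 for Nos1. Pthlh stood at 4.48, Th at 3.18 and Chodl at 2.68, on few reads: 10 to 40 counts for Pthlh, 3 to 24 for Th and 13 to 41 for Chodl. Pthlh was over 2 times the receptor density in 12 of these 13 libraries, and Th and Chodl in 9 each. The lowest Th ratio was 1.01, on 3 counts, so these markers were near background in some of the cleanest libraries too. Over all libraries the level in CPM moved with the background, given here as a description over 42 libraries that share depth and preparation. Gad1, Gad2 and Slc32a1 fell with the receptor level (Pearson r of log2 CPM from -0.85 to -0.75 in Shell and from -0.90 to -0.83 in Core). Lhx6 (-0.48) and Nkx2-1 (-0.43) also fell with the receptor level in Shell, and less so in Core (-0.02 and -0.14). Th (0.67 in Shell and 0.86 in Core), Chodl (0.66 and 0.69) and Pthlh (0.68 and 0.63) moved with it. A change of CPM in a bulk sample also cannot tell fewer cells of a type from less RNA per cell.

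Shell and Core differed in 3 of the 10 members, all higher in Shell: the interneuron factor Lhx6, the decarboxylase Gad1 and Chodl. In this comparison 13.3% of the 32145 genes tested passed an adjusted p of 0.05 by edgeR's quasi-likelihood test (4.56% higher and 8.77% lower in Shell), so the members' share was 3 of 10 against that background. The median log2 fold change was 0.066 over the members and 0.046 over all genes. Without the Core library 17-F, 4 members passed, Htr3a being added on the lower side, and 26.3% of all genes did. With the receptor level as a covariate 5 members passed, Gad1, Gad2, Slc32a1 and Lhx6 higher and Htr3a lower, and 41.3% of all genes did. With that covariate and without 17-F, 7 members and 43.9% of all genes passed. Lhx6 passed in each of these fits.

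**Figure D2:**
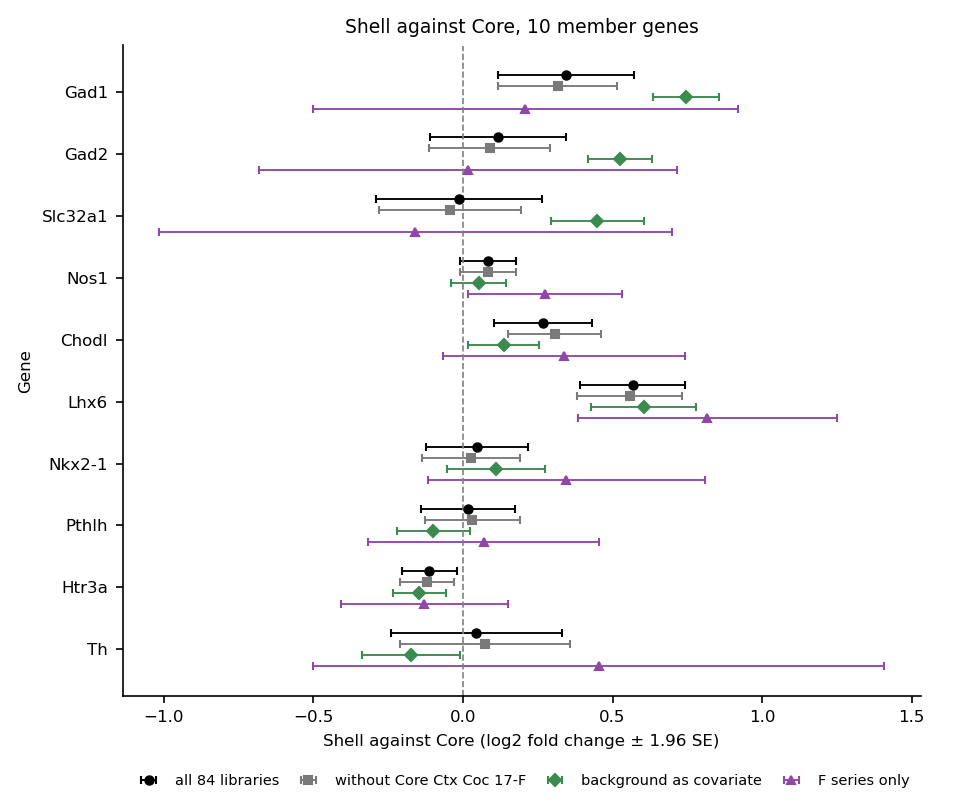
Log2 fold change of Shell against Core for the 10 members, with bars for the interval from the standard error, in 4 fits: all 84 libraries, without the Core Ctx_Coc library 17-F, with the receptor background as a covariate, and the F series alone. Lhx6 stayed between 0.56 and 0.82 in these fits, while Gad1 went up to 0.74 with the covariate.

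Gad1, the decarboxylase that supplies most GABA in neurons, was higher in Shell. Its lowest, median and highest levels were 112, 232 and 496 CPM in Shell, against 22.1, 147 and 360 CPM in Core. Among 42 Shell libraries 39 lay above the Core mean (log2 scale), but only 2 lay above the highest Core library, so the ranges overlapped widely. The log2 fold change was 0.35 ± 0.12 (SE; adjusted p = 0.0341). It was 0.32 ± 0.10 without 17-F (adjusted p = 0.0172) and 0.74 ± 0.06 with the background as a covariate (adjusted p = 4.3e-19). In the F series alone it was 0.05 without 17-F. With all F libraries it was 0.21 ± 0.36 and did not pass (adjusted p = 0.665). It also did not pass without the series term (adjusted p = 0.0586).

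**Figure D3:**
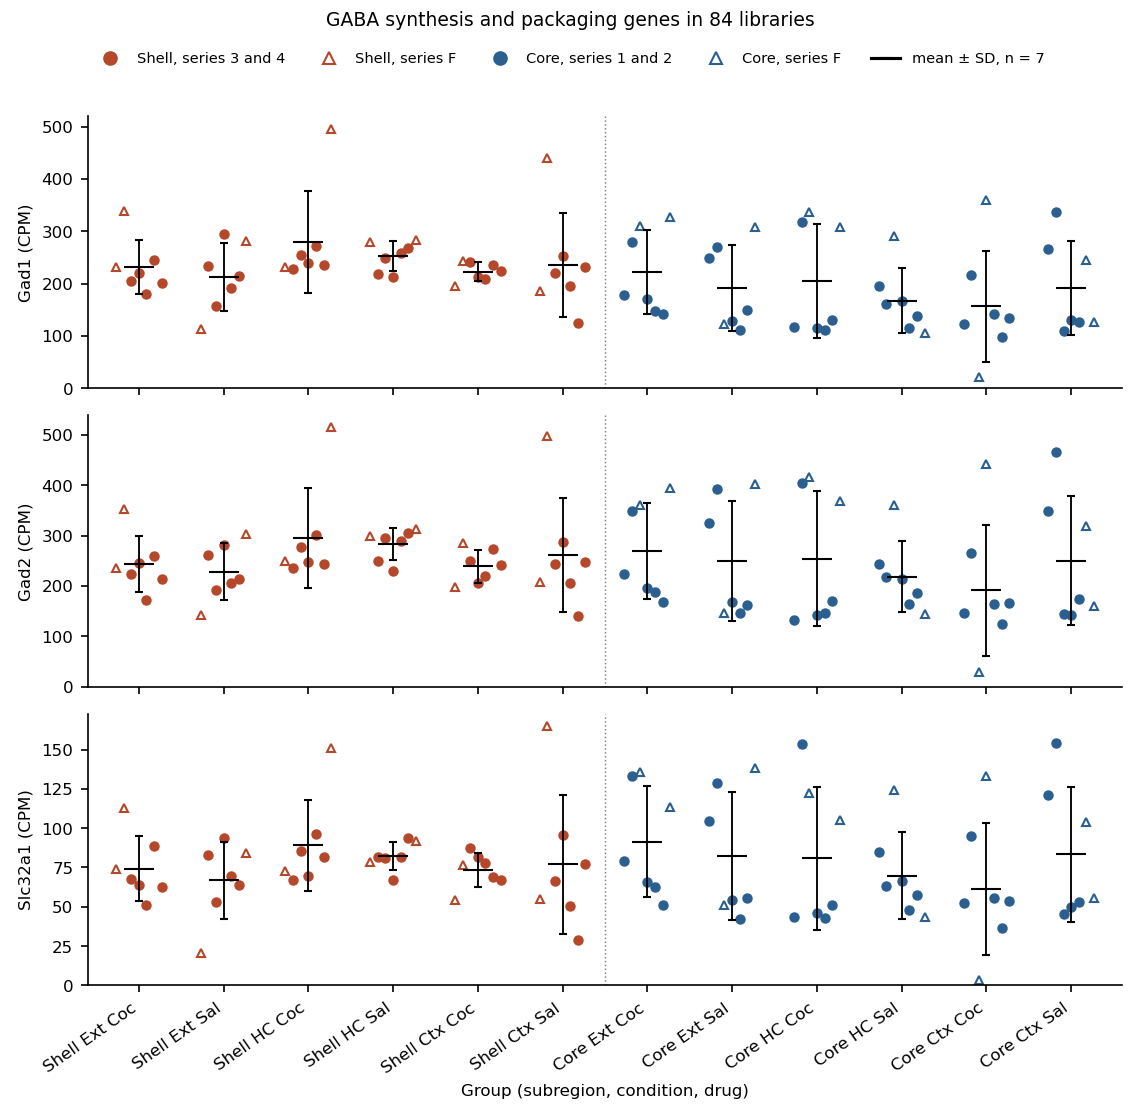
Gad1, Gad2 and Slc32a1 (CPM) in every library of the 12 groups, Shell left and Core right, with mean ± SD (n = 7). Filled circles are numbered libraries and open triangles the F series; group medians of Gad1 lay between 214 and 258 CPM in Shell and between 129 and 178 CPM in Core, and the lowest point of each panel is the Core Ctx Coc library 17-F.

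Within the 6 treatment groups Gad1 did not pass the test, where 0.109% (Ctx_Coc), 0.946% (HC_Sal), 1.15% (Ext_Sal), 1.52% (HC_Coc), 1.65% (Ctx_Sal) and 1.71% (Ext_Coc) of all genes were called. In HC_Coc Gad1 ran at 228, 239 and 496 CPM in Shell, against 111, 130 and 338 CPM in Core (lowest, median, highest). In HC_Sal it ran at 212, 258 and 283 CPM in Shell, against 105, 161 and 291 CPM in Core. The Shell median was above the Core median in both. In Ctx_Coc the levels were 195, 224 and 244 CPM in Shell, against 22.1, 134 and 360 CPM in Core. In Ctx_Sal they were 125, 221 and 440 CPM in Shell, against 109, 129 and 338 CPM in Core. The highest library of each Ctx_Sal group was far from its median. In Ext_Coc the levels were 179, 220 and 338 CPM in Shell, against 142, 178 and 327 CPM in Core, and in Ext_Sal 112, 214 and 295 CPM in Shell, against 111, 148 and 307 CPM in Core. Fitted log2 differences of Shell against Core ran from 0.07 (Ext_Coc) to 0.59 (HC_Sal), all positive, with a lowest adjusted p of 0.762. The Ctx_Coc value was 0.54, and 0.35 without 17-F, where the lowest Core library had 97.1 CPM.

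Gad2, the decarboxylase enriched at synaptic terminals, and Slc32a1 did not pass the test between the subregions. Gad2 ran at 140, 247 and 515 CPM in Shell, against 29.3, 188 and 465 CPM in Core (lowest, median, highest), with a log2 fold change of 0.12 ± 0.12 (adjusted p = 0.490, interval -0.11 to 0.35). Slc32a1 ran at 20.6, 77.0 and 165 CPM in Shell, against 3.14, 60.1 and 154 CPM in Core, with a log2 fold change of -0.01 (adjusted p = 0.958, interval -0.29 to 0.26). Both sets of ranges overlapped almost fully. Without 17-F the lowest Core library had 125 CPM of Gad2 and 36.2 CPM of Slc32a1, and the log2 fold changes were 0.09 (adjusted p = 0.511) and -0.04 (adjusted p = 0.789). With the receptor level as a covariate both were higher in Shell, Gad2 by 0.52 ± 0.06 (adjusted p = 6.51e-13) and Slc32a1 by 0.45 ± 0.08 (adjusted p = 2.51e-06). After subtraction of the expected background and without 17-F, the 3 genes stood at 0.61 ± 0.04, 0.38 ± 0.05 and 0.24 ± 0.06, in the order Gad1, Gad2 and Slc32a1, all past the threshold, as were 25.9% of all genes in that fit. For Gad2 and Slc32a1 the call thus changed with how the background was handled.

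Lhx6 had the smallest adjusted p of the 10 members. It ran at 11.3, 21.2 and 47.7 CPM in Shell, against 8.96, 13.7 and 24.3 CPM in Core (lowest, median, highest). Of the 42 Shell libraries 35 lay above the Core mean and 13 above the highest Core library. The log2 fold change was 0.57 ± 0.09, a 1.48-fold difference (adjusted p = 6.91e-07). It was 0.56 without 17-F, 0.60 with the background covariate (adjusted p = 3.82e-08) and 0.45 in the numbered series alone (adjusted p = 0.000633). In the F series, where both subregions share a series, it was 0.82 ± 0.22, and 11 of 12 Shell libraries exceeded the Core mean, but it did not pass (adjusted p = 0.208). Median background in these F libraries was 19.5% in Shell and 3.74% in Core, and its part in this value was not tested. In that series 0 members and 0.226% of all genes (76 of 33581) were called.

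**Figure D4:**
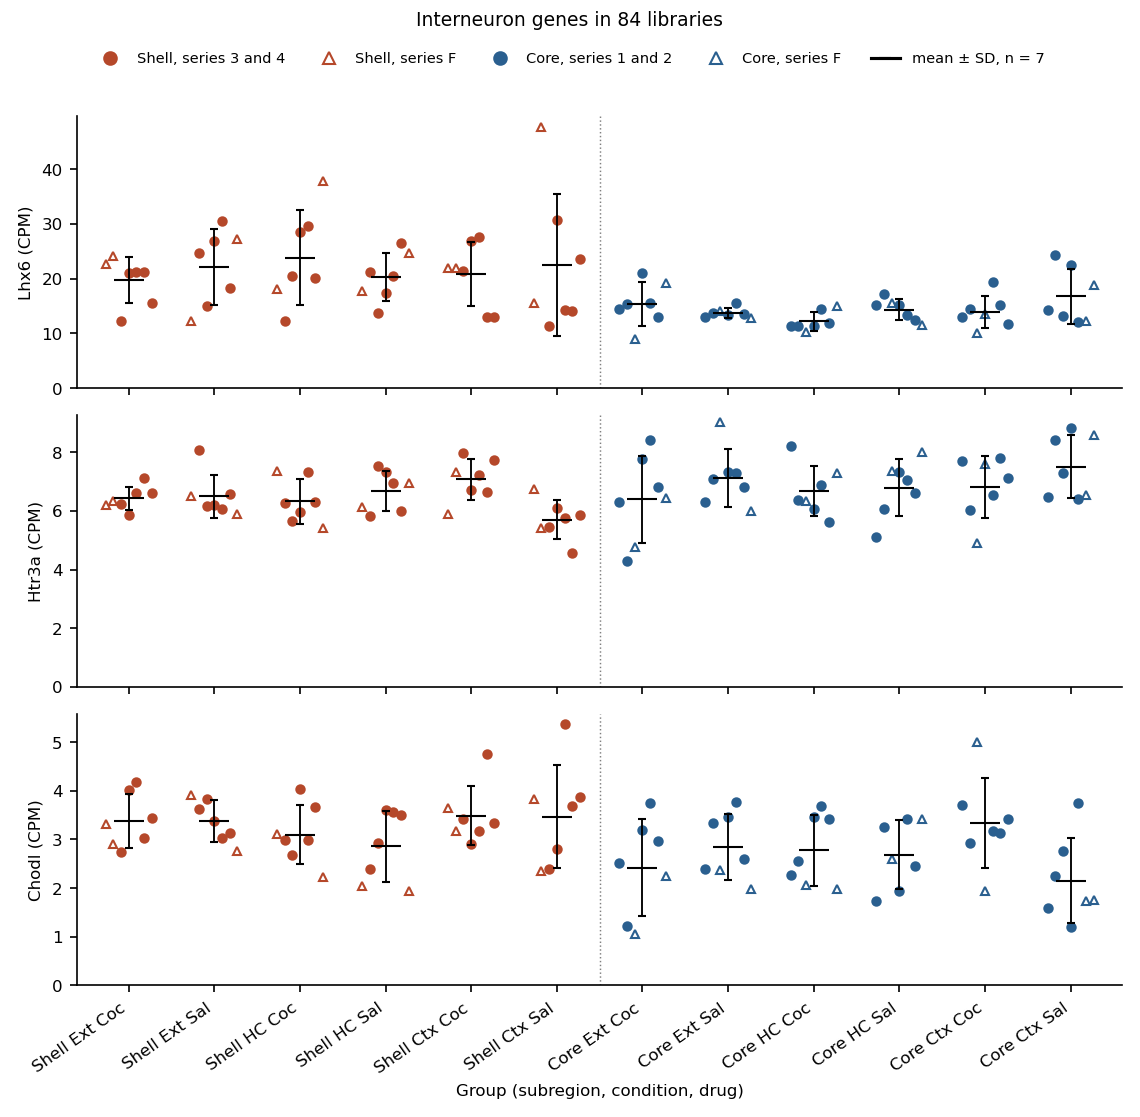
Lhx6, Htr3a and Chodl (CPM) in every library of the 12 groups, Shell left and Core right, with mean ± SD (n = 7); filled circles are numbered libraries and open triangles the F series. Lhx6 reached 47.7 CPM in Shell and 24.3 CPM in Core, while Htr3a stayed between 4.30 and 9.04 CPM in all 84 libraries.

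The difference in Lhx6 had the same sign in all 6 treatment groups and passed in HC_Coc. There Shell libraries ran at 12.2, 20.6 and 37.9 CPM, against 10.2, 11.3 and 14.9 CPM in Core, with a log2 fold change of 0.94 ± 0.22 (adjusted p = 0.00624). In this group 1.52% of all genes passed. Ext_Sal had 12.3, 24.8 and 30.5 CPM in Shell, against 12.8, 13.6 and 15.6 CPM in Core, at 0.68 ± 0.22 (adjusted p = 0.138). Core libraries of this group lay within a narrow band, and the Shell ones did not. Ctx_Coc had 12.9, 22.0 and 27.7 CPM in Shell, against 10.1, 13.5 and 19.3 CPM in Core, at 0.58 ± 0.22 (adjusted p = 0.907). HC_Sal had 13.7, 20.5 and 26.4 CPM in Shell, against 11.5, 15.1 and 17.1 CPM in Core, at 0.48 ± 0.22 (adjusted p = 0.911). In both, the Shell median lay above the highest Core library. Ctx_Sal had 11.3, 15.5 and 47.7 CPM in Shell, against 12.1, 14.2 and 24.3 CPM in Core, at 0.38 ± 0.22. Ext_Coc had 12.2, 21.3 and 24.1 CPM in Shell, against 8.96, 15.3 and 21.1 CPM in Core, at 0.35 ± 0.22. The HC_Coc call was lost in the numbered series alone (0.82, adjusted p = 0.101) and in the F series alone (1.15, adjusted p = 0.872).

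Nkx2-1, which acts upstream of Lhx6 in development, did not pass the test. It ran at 1.44, 2.67 and 5.28 CPM in Shell, against 0.98, 2.61 and 4.98 CPM in Core (lowest, median, highest). These are 18 to 80 counts per library, and the ranges coincided. Without 17-F the lowest Core library had 1.45 CPM. Its log2 difference was 0.05 ± 0.09 (adjusted p = 0.723, interval -0.12 to 0.22). On a per-length scale Lhx6 averaged 0.90 CPM per kilobase in Shell and 0.60 in Core, and Nkx2-1 averaged 0.56 in Shell and 0.54 in Core.

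Htr3a varied little between libraries, and was the only member with a fold change below 0 in each of the 4 fits plotted above. It ran at 4.57, 6.28 and 8.09 CPM in Shell, against 4.30, 6.86 and 9.04 CPM in Core. The log2 fold change was -0.11 ± 0.05 (adjusted p = 0.102). The adjusted p was 0.0480 without 17-F (-0.12) and 0.00578 with the background covariate (-0.15), so this small difference passed or failed with the setting. In Ctx_Sal Htr3a was lower in Shell and passed: 4.57, 5.77 and 6.76 CPM in Shell, against 6.4, 7.29 and 8.83 CPM in Core, at -0.42 ± 0.12 (adjusted p = 0.0334, with 1.65% of all genes called). Those 2 groups overlapped only at the top of the Shell range. That call was lost with DESeq2's size factors (adjusted p = 0.129), DESeq2's Wald test (0.0585), with no low-count filter (0.0854), in the F series alone (1) and in the numbered series alone (0.0645). In the other 5 groups the fitted values ran from -0.15 to 0.05.

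Pthlh did not pass the test between the subregions. It ran at 1.35, 2.59 and 3.81 CPM in Shell, against 0.81, 2.60 and 3.74 CPM in Core, with medians almost the same. Its log2 difference was 0.02 (adjusted p = 0.897, interval -0.14 to 0.17). Background was expected to supply 69.2% of its counts. The log2 difference changed sign with the background covariate (-0.10 ± 0.06, adjusted p = 0.205). It was also below 0 after subtraction without 17-F (-0.39 ± 0.22, adjusted p = 0.203). Neither passed, and the part of background was not tested beyond these fits.

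Nos1 also varied little between libraries. It ran at 65.7, 87.4 and 109 CPM in Shell, against 50.1, 84 and 132 CPM in Core. The Core range contained the Shell range. Shell and Core differed by a log2 of 0.08 ± 0.05 (adjusted p = 0.222, interval -0.01 to 0.18). It was 0.27 ± 0.13 in the F series (adjusted p = 0.421) and near 0 in the numbered libraries.

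Chodl was called higher in Shell, but on counts at the level of the background. It ran at 1.95, 3.25 and 5.37 CPM in Shell, against 1.05, 2.60 and 5.01 CPM in Core. Of 42 Shell libraries 36 lay above the Core mean and 1 above the highest Core library, 17-F. The next highest Core library had 3.76 CPM. The log2 fold change was 0.27 ± 0.08 (adjusted p = 0.0200). It was 0.31 ± 0.08 without 17-F (adjusted p = 0.00287). With the background covariate it was 0.14 ± 0.06 (adjusted p = 0.0668), and 0.16 ± 0.06 with it and without 17-F (adjusted p = 0.0299). DESeq2's test in place of edgeR's gave 0.25 (adjusted p = 0.0572). The call thus changed with the setting. Expected background counts exceeded the Chodl count in 37 of 42 Shell libraries and 26 of 41 Core libraries without 17-F. Values after subtraction are therefore mostly at the floor and give no direction for Chodl. Mean receptor background was itself higher in Shell (22.7% against 19.4%), while the medians were close (21.9% in Shell and 22.2% in Core). The part of background in the Chodl call was not tested beyond these fits.

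Th ran at 0.56, 2.25 and 3.17 CPM in Shell, against 0.22, 2.45 and 4.37 CPM in Core. Core libraries spread more, from 3 to 99 counts, and those with the fewest Th counts had little background. The log2 fold change was 0.05 ± 0.15 (adjusted p = 0.845, interval -0.24 to 0.33). With the covariate it was -0.17 ± 0.08 (adjusted p = 0.0894). It was -0.20 ± 0.08 and passed with the covariate and without 17-F (adjusted p = 0.0416). Slc6a3 and Pitx3, which define midbrain dopamine neurons, had medians of 3.52 and 2.00 log2 CPM in Shell, against 3.67 and 2.04 in Core. Like Th, they fell to below 0 at their lowest in each subregion. Th was below 0 in several Core libraries, among them 13-F (-1.58), 3-F (-1.55) and 19-F (-1.49). Whether Slc6a3 and Pitx3 stood above background was not tested.

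Neighbouring genes of the same pathways were counted in lists drawn up with earlier results of these data known. The list counts below stand against 4.56% of all genes higher and 8.77% lower in Shell, and those with the covariate against 9488 higher and 3796 lower of 32145 genes (41.3% in all). Of 14 genes that carry, break down or sense GABA, 3 were higher in Shell and 0 lower, and their median difference was 0.10 (log2). Among them were the GABA transporter Slc6a11 (0.53 ± 0.07, adjusted p = 5.44e-09) and the GABA-B receptor subunit Gabbr2 (0.15 ± 0.04, adjusted p = 0.0110). With the background covariate 12 of the 14 were higher, and the median was 0.26. Slc6a11 is made largely by astrocytes, and of 5 astrocyte markers 2 were lower in Shell, while Slc1a2 (-0.29), Gja1 (-0.24) and Aldh1l1 (-0.05) did not pass.

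Of 20 genes of other interneuron classes, 9 were higher in Shell and 2 lower, with a median of 0.24. Those that rose included the fast potassium channel Kcnc2 (0.58 ± 0.06, adjusted p = 3.74e-13), the choline transporter Slc5a7 (0.60 ± 0.06, adjusted p = 7.8e-12) and the cholinergic fate factor Lhx8 (0.69 ± 0.09, adjusted p = 2.3e-09). Named after its values were seen, the calretinin gene Calb2 also rose (0.54 ± 0.07, adjusted p = 5.37e-09). The 2 that fell, also named after the fact, were the peptides of the nitric oxide synthase class: Npy (-0.54 ± 0.13, adjusted p = 0.00149) and Sst (-0.44 ± 0.15, adjusted p = 0.0389). Both calls were lost with the background covariate, where Npy stood at -0.12 (adjusted p = 0.162) and Sst changed sign, to 0.04 (adjusted p = 0.738). The 4 named genes that rose passed there too, and the list had 10 higher and 2 lower. Nos1, the usual partner of both peptides, stood at 0.08. Among 15 ganglionic eminence factors 2 were higher and 3 lower in Shell, with a median of 0.05. Those lower included Etv1 (-0.38 ± 0.06), and those higher, named after their values were seen, were Isl1 (0.24 ± 0.07) and Dlx2 (0.30 ± 0.10). With the covariate 7 were higher and 4 lower. Of 10 genes of dopamine synthesis and handling, Ddc, the decarboxylase after Th, was higher (0.29 ± 0.08, adjusted p = 0.00558) and the pterin reductase Qdpr lower (-1.18 ± 0.13, adjusted p = 1.55e-11). Among 8 genes of nitric oxide signalling, the cGMP-dependent kinase Prkg1 was lower (-0.26 ± 0.04, adjusted p = 7.62e-06) and 0 were higher. With the covariate 4 of the 8 were higher and 1 lower. The guanylate cyclase subunit Gucy1a1, named after its values were seen, stood at 0.56 there (adjusted p = 7.25e-14), and at 0.20 without the covariate (adjusted p = 0.195). Without 17-F the dopamine list had 2 higher and 2 lower, and the list of other interneuron classes 9 higher and 3 lower.

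Markers of other cells moved between the subregions beside these results. All 6 oligodendrocyte markers were lower in Shell (median -1.79), among them Opalin (-1.74), Mobp (-1.98) and Mbp (-1.82). Their summed level ran from 450 to 1976 CPM in Shell and from 168 to 6989 CPM in Core. Of 6 genes of neighbouring basal forebrain cells 4 were higher in Shell and 0 lower (median 0.52), with Zic1 (0.83 ± 0.11), Zic4 (0.63 ± 0.10) and Trpc4 (0.49 ± 0.09) at their head. Their sum ran from 63.0 to 118 CPM in Shell and from 16.3 to 98.9 CPM in Core, and none was at 0 in any library. Projection neuron markers were higher in 1 and lower in 4 of 11, led by Penk (-0.94 ± 0.16), Adora2a (-0.45 ± 0.11) and Ppp1r1b (-0.57 ± 0.16), while Tac1, named after its value was seen, was higher (0.47 ± 0.14), with sums of 1077 to 4921 CPM in Shell and 351 to 5550 CPM in Core. With the covariate that split turned to 5 higher and 1 lower, with a median of 0.22 in place of -0.23, and Adora2a (-0.09, adjusted p = 0.273) and Ppp1r1b (-0.06, adjusted p = 0.648) no longer passed. Astrocyte markers were lower in 2 of 5 (377 to 1139 CPM in Shell and 98.0 to 1637 CPM in Core), namely Gfap (-1.61 ± 0.17) and Aqp4 (-0.74 ± 0.13), microglial in 3 of 4 (Tmem119, Csf1r and Cx3cr1), endothelial in 1 of 3 (Flt1), and cortical glutamatergic in 0 of 4 (9.61 to 327 CPM in Shell and 5.97 to 139 CPM in Core). Without 17-F, 4 of the 5 astrocyte markers were lower. With the covariate 2 were higher, Slc1a2 (0.14) and Gja1 (0.20), and 2 lower. The oligodendrocyte and basal forebrain counts were the same in both of these fits. The part of these cell types in the differences of Lhx6 and Gad1 was not tested.

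Over the 12 groups, only Htr3a had 2 neighbours in the order of median levels whose means differed by more than both SDs. These were Shell Ext_Sal (6.50 ± 0.74 CPM) and Shell Ctx_Sal (5.70 ± 0.68 CPM). Gad1 ran from 258 CPM (Shell HC_Sal) to 129 CPM (Core Ctx_Sal), with the medians of all 6 Shell groups above those of all 6 Core groups. Gad2 ran from 296 CPM (Shell HC_Sal) to 164 CPM (Core Ctx_Coc), and Slc32a1 from 81.9 CPM (Shell HC_Sal) to 51.4 CPM (Core HC_Coc). Lhx6 ran from 24.8 CPM (Shell Ext_Sal) to 11.3 CPM (Core HC_Coc). Nos1 had the narrowest relative span, from 92.0 CPM (Shell HC_Sal) to 79.1 CPM (Core Ext_Coc). Htr3a was lowest at 5.77 CPM (Shell Ctx_Sal) and highest at 7.29 CPM (Core Ctx_Sal), so its extremes were the same treatment in the 2 subregions. Nkx2-1 ran from 2.93 to 2.19 CPM, Pthlh from 2.97 to 1.955, Chodl from 3.69 to 1.76 and Th from 2.62 to 1.67.

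Cocaine history moved none of the 10 members past the threshold. In the 6 comparisons of Coc with Sal, 3 in each subregion, 0 members and 0% of all genes were called by edgeR, and 3 of 60 member tests had an unadjusted p under 0.05. DESeq2 called 4 genes over the 6 comparisons and 0 members. Per comparison, 180 to 3407 of all genes had an unadjusted p under 0.05. Fitted values over members and comparisons ran from -0.67 to 0.71 on the log2 scale.

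**Figure D5:**
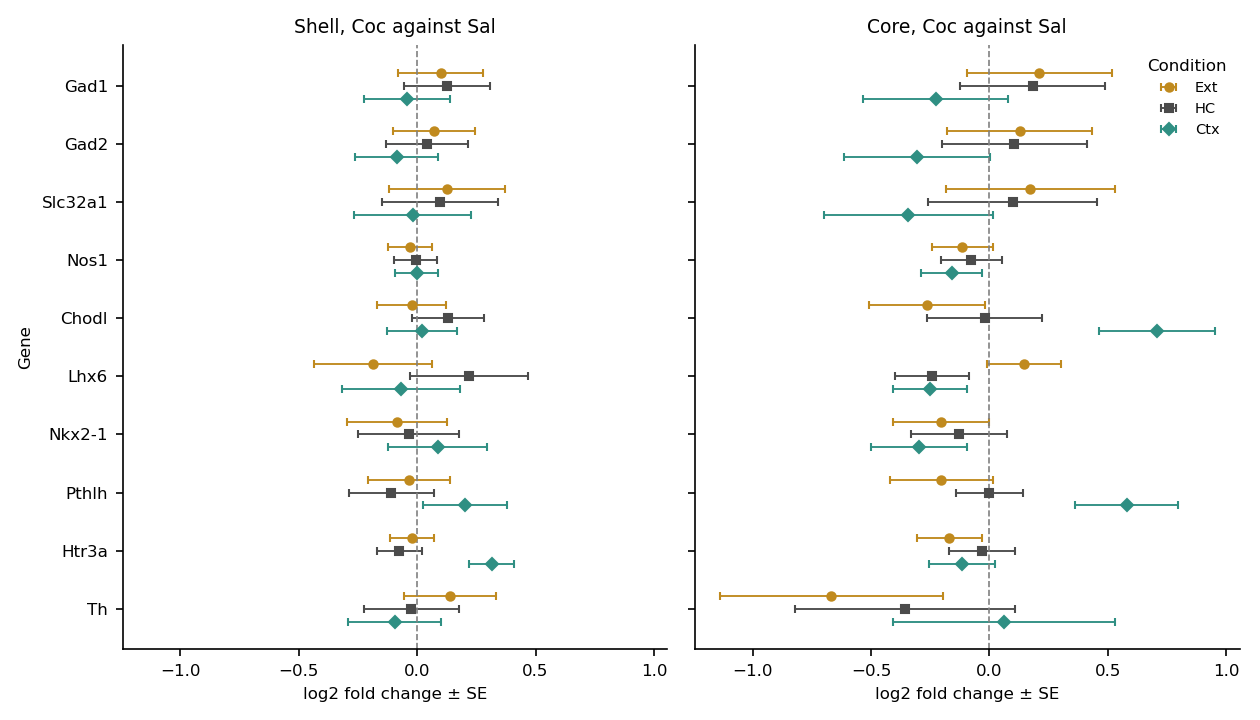
Log2 fold change of Coc against Sal (± SE) for the 10 members within Ext, HC and Ctx, Shell left and Core right. Values in Shell stayed between -0.19 and 0.32, and those in Core ran from -0.67 (Th in Ext) to 0.71 (Chodl in Ctx, 0.47 without 17-F); none passed an adjusted p of 0.05.

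The member values with an unadjusted p under 0.05 all came from Ctx. Htr3a in Shell Ctx had 5.91, 7.22 and 7.98 CPM in Coc, against 4.57, 5.77 and 6.76 CPM in Sal (lowest, median, highest), at 0.32 ± 0.09 (adjusted p = 0.731). Chodl in Core Ctx had 1.94, 3.17 and 5.01 CPM in Coc, against 1.20, 1.76 and 3.76 CPM in Sal, at 0.71 ± 0.25 (adjusted p = 0.433). Pthlh in Core Ctx had 2.56, 2.97 and 3.74 CPM in Coc, against 1.18, 1.955 and 3.01 CPM in Sal, at 0.58 ± 0.22 (adjusted p = 0.433). For both Core genes most counts were expected from background in Core, 63.9% for Pthlh and 119%, an overshoot, for Chodl. Background in Core Ctx was estimated at 32.3% ± 30.3 of counts in Coc and 13.9% ± 11.2 in Sal (SD, n = 7 each). Without 17-F, Chodl stood at 0.47 and Pthlh at 0.49. With the background covariate they stood at 0.40 and 0.35.

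The transmitter genes did not pass either, with wide intervals in Core. In Core Ctx, Gad1 had 22.1, 134 and 360 CPM in Coc, against 109, 129 and 338 CPM in Sal. The lowest Coc value is 17-F, and the next was 97.1 CPM. Its fitted log2 values were 0.10 in Ext, 0.13 in HC and -0.04 in Ctx in Shell, and 0.21, 0.18 and -0.23 in Core. Without 17-F the Core Ctx values were -0.03 for Gad1, -0.12 for Gad2 and -0.13 for Slc32a1, against -0.23, -0.31 and -0.34 with it. Over the 6 comparisons with all libraries the intervals of Gad1 reached from -0.83 to 0.81, those of Nos1 from -0.41 to 0.18, and those of Th from -1.59 to 0.98. Those of Nos1 were thus narrower than those of Th.

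Comparisons of the conditions moved no member past the threshold either. In 12 comparisons of conditions (Ext against HC, Ctx against HC and Ext against Ctx, within Coc and within Sal of each subregion), 0 members and 0% of all genes were called by edgeR. DESeq2 called 3 genes and 0 members. Of the 120 member tests, 5 had an unadjusted p under 0.05, and fitted values ran from -0.65 to 0.52. Lhx6 in Core was 0.32 ± 0.16 in Ext_Coc against HC_Coc (8.96, 15.3 and 21.1 CPM in Ext_Coc, against 10.2, 11.3 and 14.9 CPM in HC_Coc). Chodl (-0.56 ± 0.24) and Pthlh (-0.54 ± 0.22) in Core were lower in Ext_Coc than in Ctx_Coc, where 17-F lies, without passing (adjusted p = 0.304 for both), and stood at -0.33 and -0.46 without 17-F. Htr3a in Shell was -0.22 ± 0.10 in Ctx_Sal against HC_Sal and 0.21 ± 0.10 in Ext_Sal against Ctx_Sal. These comparisons share groups with each other and with the drug comparisons, so the low Htr3a of Shell Ctx_Sal enters each of them.

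The drug effect was also compared between conditions and between subregions, in 7 tests of the difference itself. By edgeR 0 members and 0% of all genes were called, and 4 of 70 member tests had an unadjusted p under 0.05. DESeq2 called 3 genes and 0 members. For Htr3a the effect in Ctx was larger in Shell than in Core by 0.47 ± 0.16 (adjusted p = 0.964), and in Shell it was larger in Ctx than in HC by 0.39 ± 0.13 (adjusted p = 0.505). For Chodl the effect in Ctx was smaller in Shell than in Core (difference -0.62 ± 0.29, adjusted p = 0.964), and in Core it was larger in Ctx than in HC by 0.73 ± 0.35 (adjusted p = 0.351). Without 17-F these were -0.41 and 0.51.

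Some members rose and fell together over the libraries of a subregion once group means and series were removed. For 6 pairs in 2 subregions, 7 of 12 correlations of log2 CPM passed a permutation test with 100000 resamples after adjustment. Gad1 followed Gad2 closely (Pearson r = 0.974, Spearman rho = 0.962 in Shell; r = 0.991, rho = 0.974 in Core; n = 42 each). It also followed Slc32a1 (r = 0.954, rho = 0.891 in Shell; r = 0.981, rho = 0.973 in Core). Each of these 4 had a permutation p of 1e-05, the smallest that the resamples can give, and an adjusted p of 2e-05. They held without the 2 libraries farthest from the median (r from 0.928 to 0.983), within the numbered series (0.903 to 0.982), within the F series (0.983 to 0.999) and with the receptor level removed (0.884 to 0.954). Depth and background are shared by the genes of a library, and their part in these r values beyond the receptor level was not tested.

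Lhx6 and its regulator Nkx2-1 moved together as well (r = 0.835, rho = 0.828 in Shell; r = 0.646, rho = 0.629 in Core), with permutation p = 1e-05 and adjusted p = 2e-05 in both. Within series r was 0.804 (numbered) and 0.908 (F) in Shell, and 0.490 and 0.886 in Core. Without the 2 farthest libraries it was 0.805 in Shell and 0.627 in Core, and with the receptor level removed 0.789 in Shell and 0.646 in Core. Lhx6 and Pthlh ran opposite to each other in Shell (r = -0.569, rho = -0.546, permutation p = 1e-04, adjusted p = 0.000171). This r was -0.473 without the 2 farthest libraries, -0.369 in the numbered and -0.822 in the F series, and -0.351 with the receptor level removed. In Core it was -0.160 (permutation p = 0.314). Pthlh lay under 2 times the receptor density in 39 of 42 Shell libraries. With group means and series removed, Pthlh rose with the receptor level in Shell (r = 0.689) and Lhx6 fell with it (r = -0.507). Lhx6 and Nos1 had r = 0.068 in Shell (permutation p = 0.669) and 0.319 in Core (permutation p = 0.0404, adjusted p = 0.0606). With the receptor level removed r was 0.193 in Shell, and 0.371 in Core, where it passed (permutation p = 0.0153, adjusted p = 0.0263). Spearman rho in Core, without that removal, was 0.199 and did not pass. Nos1 and Chodl, which mark 1 class of cells in mouse cortex, did not pass in either subregion (r = -0.03 in Shell and -0.01 in Core). The counts of Chodl cannot be told from background in most libraries.

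The genes most like each member over the 84 libraries, by Pearson r of log2 CPM with group means and series removed, are given as a description. Gad1 was most like Gad2 (0.988), Nsg1 (0.985) and Rtl5 (0.982), Gad2 most like Gad1, Ap1s2 (0.983) and Pcdh10 (0.982), and Slc32a1 most like Chchd10 (0.981), Rtl5 (0.981) and Nsg1 (0.979). Lhx6 was most like Slc6a11 (0.940), Agt (0.879) and Gpr165 (0.852), of which Slc6a11 encodes a GABA transporter and Agt angiotensinogen. Nkx2-1 was most like Baiap3 (0.761), Lhx6 (0.752) and Slc6a11 (0.750). For Lhx6, Slc6a11 (0.936) and Agt (0.907) also led once the receptor level was removed. Nos1 was most like Txnrd2 (0.785), Rgs12 (0.766) and Kcnk3 (0.735). Likeness was weaker for Htr3a, with Irf7 (0.562), Tmc6 (0.536) and Rfc2 (0.536). For the 3 genes nearest to background the leaders included Alox12e (0.912) and Fcgbp (0.911) for Th, Rbm46 (0.763), Zfp563 (0.745) and Sema3a (0.732) for Chodl, and Pex7 (0.654), Ror1 (0.643) and Eci3 (0.637) for Pthlh. Of these 8 only Alox12e and Pex7 were again among the 3 nearest once the receptor level was removed.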

How the data were processed

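The deposited table held 1 read count and 1 FPKM per gene and library. Counts came from featureCounts as run by the authors; the submitters' processing notes name it and the build mRatBN7.2. FPKM is the authors' own value, per the file headers. RNA was extracted with a Direct-zol kit and prepared with the SMARTer Stranded Total RNA-seq v3 Pico kit, per the labels' protocols. The aligner, the annotation, how strand was handled and whether molecular identifiers were collapsed are not stated.

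Counts were tested as deposited with edgeR 4.0.16 in R 4.3.3 (TMM scaling, filterByExpr, quasi-likelihood F test, Benjamini-Hochberg adjustment over all genes tested, threshold 0.05). Within a subregion its 42 libraries were fitted together with series as a term. Shell against Core used all 84 libraries with the F or numbered series as a term. Levels are CPM after TMM scaling; log2 CPM uses a prior count of 2. A standard error is the log2 fold change divided by the root of F, and intervals are the usual normal intervals from it. Correlations were tested by permutation with numpy 2.4.6. The fit was also run on simulated counts that held no background or series differences, so that run cannot show how background affects it. DESeq2 1.42.0, other scalings, no filter, single series, the receptor level as covariate and left-out libraries were alternatives.

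All 10 members are named. From each gene list up to 3 genes of lowest p in Shell against Core were named, and the 3 genes of highest Pearson r per member, at a mean log2 CPM of at least 1; a few genes that this rule names are not reported here. The members and lists were chosen with earlier results of these data known. No 2 libraries were identical (highest correlation 0.987). Libraries held 13628550 to 22494761 counts, and counting error at this depth is largest for members with few counts. Intervals and errors do not cover duplicate reads from amplification. Gene names were matched to RefSeq for 29367 of 41919 genes. RefSeq's build GRCr8 differs from that of the files, so only promoter windows carry coordinates.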

Additional observations from a re-analysis of the deposited data

Results flagged for a closer look

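In 14 of 120 sets of 7 libraries (10 members in 12 groups), the highest or lowest library stood apart from the other 6 by Dixon's criterion, in 8 members and 11 libraries; chance gives about 1 in 20. Values are log2 CPM, with the share of counts from background in that library.

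In Shell HC_Coc, library 6-F (background 2.13%) stood high for Gad1 at 8.95 (the others 7.84 to 8.08) and for Gad2 at 9.01 (7.88 to 8.24), and low for Th at -0.58 (0.71 to 1.66). Th was also low in Core Ctx_Coc library 19-F at -1.49 (the others 1.21 to 1.72, background 1.58%) and in Core Ext_Sal library 3-F at -1.55 (0.93 to 1.89, background 1.71%). Nos1 was low in that same library 3-F at 5.65 (6.32 to 6.71). Slc32a1 was low in Core Ctx_Coc library 17-F at 1.70 (5.18 to 7.06, background 96.1%) and in Shell Ext_Sal library 12-F at 4.37 (5.73 to 6.55, background 52.4%).

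Nos1 was high in Shell Ext_Coc library 3-2 at 6.70 (6.27 to 6.45, background 16.3%). Nkx2-1 was high in Core Ext_Sal library 1-6 at 2.35 (1.23 to 1.60, background 4.75%) and low in Shell HC_Coc library 4-9 at 1.08 (1.44 to 1.68, background 19.9%). Pthlh was low in Core Ext_Coc library 1-3 at -0.11 (1.09 to 1.71, background 2.81%) and in Shell Ext_Coc library 2-F at 1.11 (1.43 to 1.67, background 12.4%). Htr3a was high in Shell Ext_Sal library 3-5 at 3.04 (2.58 to 2.74, background 20.7%). The part of background in these values was not tested.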

How the results depend on the processing

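For single members, 269 results under alternative settings kept direction and side of the threshold, 16 passed newly, 22 no longer passed and 25 changed sign; the cause was not tested. Between Shell and Core, 0 members passed in the F series alone, with or without the Core Ctx_Coc library 17-F, 5 with the receptor level as covariate, 7 with that covariate and without 17-F, and 5, Chodl among them, with background subtracted and without 17-F. The calls over all genes were 76, 714, 13284, 14134 and 6884 in these fits, and 8454 without 17-F alone. Calls split as 1465 higher and 2818 lower in Shell in the fit of all 84 libraries, 4055 and 4399 without 17-F, and 9488 and 3796 with the covariate. Over the 6 treatment groups 2 member calls became 1 with DESeq2's size factors and 1 with no filter, 0 in the numbered series, 0 in the F series with or without 17-F, 18 with the covariate, 18 with it and without 17-F, and 12 with background subtracted. Per group, 1504 to 7596 of 32145 genes, 2095 to 8831 of 32177 and 659 to 1380 of 26602 were called in these last 3 fits.

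Signs changed as follows. Slc32a1 stood at 0.027 with DESeq2's size factors, 0.026 with its Wald test, 0.45 with the covariate, 0.38 with it and without 17-F, 0.020 in the numbered series, 0.10 with the replicate block and 0.24 after subtraction. Th stood at -0.17, -0.20, -0.068, -0.022 and -0.17 in the last 5 kinds of fit, and Pthlh at -0.099, -0.11, -0.016, -0.011 and -0.39. Nkx2-1 stood at -0.084 in the numbered series and -0.098 with the block, Nos1 at -0.0025 in the numbered series, and Gad2 at -0.14 in the F series without 17-F. Chodl lay below background in 37 of 42 Shell libraries and 26 of 41 Core libraries, so its fitted values after subtraction come from the floor and give no direction or call: -2.72 over all groups, -2.11 in Ext_Coc, -1.27 in Ctx_Sal, and 0.40 for the difference of its drug effect in Ctx between Shell and Core.

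Whether same-numbered Shell and Core libraries are pairs was not settled. The 30 such pairs correlated at a median of 0.215 (-0.588 to 0.780), 18 of them over 0.1, and 9 Core libraries correlated best with their own number. The 120 pairs of other numbers in the same group had a median of -0.082 (-0.816 to 0.789), with 44 over 0.1. With the number as a block, 2 members passed, Gad1 at 0.45 and Lhx6 at 0.41, among 3775 genes. The fits that subtract background, join the covariate with leaving out 17-F, or leave 17-F out of the F series were chosen after seeing the data. Of 12 correlations 7 passed, 7 with a prior count of 0.5, 7 by Spearman and 8 with the receptor level removed. Counts of 3 to 169 limit Th, Chodl and Pthlh.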
